A study of Homo sapiens with 60 samples.

Results

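A549, an adherent line from a human lung adenocarcinoma with some features of alveolar epithelium, was held for 24 h in an ethanol extract of Glycyrrhizae Radix, the licorice root, and its messenger RNA was sequenced. The comparison described here sets 500 µg/mL of that extract (n = 3 libraries, labelled high dose) against 20 µg/mL (n = 3, labelled low dose). The libraries were chosen by their treatment labels and are 6 of the 60 in the series. All genes that passed a filter on low counts were compared, 17764 of the 60675 gene identifiers in the deposited table. A further 4 groups are used for reference. Licorice extract at 100 µg/mL (n = 3) lies between the doses, the vehicle libraries (n = 3) carry 0.1% DMSO, and an ethanol extract of Panax Ginseng at 500 and 20 µg/mL (n = 3 each) shares the leading number of the licorice sample codes. All of them are 24 h cultures of the same line and carry the same batch letter, so no batch split could be made from the labels. The extract was drawn with 70% ethanol and is a mixture whose constituents were not measured. The design text gives 2% DMSO for the vehicle and lower doses for extracts that inhibit the cells by 20% (IC20) below 500 µg/mL, while the labels of these libraries give 500, 100 and 20 µg/mL. Whether the libraries of a group are separate cultures is not stated, so p-values refer to the spread among the libraries, which may be technical.

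A pair of well-known programmes opens the account. The aryl hydrocarbon receptor is a cytosolic sensor of planar aromatic compounds, plant flavonoids among them. Once bound it enters the nucleus, pairs with ARNT and switches on enzymes that oxidise and conjugate such compounds, together with its own repressors AHRR and TIPARP. The integrated stress response begins when kinases that sense missing amino acids, unfolded protein, heme shortage or double-stranded RNA phosphorylate the initiation factor eIF2. General translation then falls, while the transcription factor ATF4 is translated more and turns on amino acid synthesis, amino acid uptake and the charging of transfer RNA. Licorice itself is best known for glycyrrhizin, whose acid form inhibits a cortisol-inactivating enzyme of the kidney.

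The depths of the libraries overlapped. Totals were 22625335 to 27759256 counts at 500 µg/mL and 24769170 to 29764332 at 20 µg/mL (exact two-sided permutation p = 0.5, where 3 against 3 cannot go below 0.1). Mitochondrially encoded genes took 19.2% to 22.8% of counts at 500 and 16.3% to 21.5% at 20 µg/mL (exact permutation p = 0.6), and the 100 most abundant genes took 35.0% to 38.4% and 32.5% to 37.3% (exact permutation p = 0.6). CDKN2A, a gene that A549 cells have lost, had 0 counts in all 6 libraries, where a count of 0 allows up to 3. The epithelial markers KRT8, KRT18, KRT19, CDH1 and EPCAM were all present. Their levels were summed per 1000000 counts of the unscaled library total. The sums were 3953 to 4085 at 500, 6282 to 6593 at 20 µg/mL and 7512 to 7678 in the vehicle. CPM values elsewhere are counts per 1000000 of the scaled library total. All 5 markers were called lower at 500, with KRT8 at -0.78 ± 0.05 on the log2 scale. After a log2 change, ± gives its SE, or the counting error of the reads where that is larger. Of the leukocyte markers PTPRC had at most 1 count in any of the 6 libraries and CD3E, CD3D and MS4A1 had 0. CD68, a lysosomal membrane protein used as a macrophage marker, rose by 1.76 ± 0.15. It carried the summed leukocyte list to 66.5 to 76.4 from 19.9 to 25.9 per 1000000 of the unscaled total. Of the 3 leukocyte markers tested 2 rose and 1 was not called. CD14 had 87, 85 and 107 counts at 500 and 76, 58 and 75 at 20 µg/mL, and ITGAM had 34, 22 and 23 against 25, 22 and 40. Of the 5 fibroblast markers tested 2 fell and 3 were not called. COL3A1 fell by the most (-1.70 ± 0.12), while COL1A1 had 57, 62 and 64 counts at 500 and 60, 53 and 71 at 20 µg/mL. Of the 2 endothelial markers tested KDR fell (-0.76 ± 0.07) and 1 was not called, and CDH5 had at most 1 count per library. The part of these markers in the results below was not tested. In bulk RNA, a fall in the number of cells of a type and a fall in the RNA each cell holds cannot be told apart.

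Between 20 and 500 µg/mL the extract changed a large part of the transcriptome, mostly by small amounts. By the quasi-likelihood test of edgeR, with p-values adjusted by Benjamini-Hochberg and a threshold of 0.05, 6568 of 17764 genes were called (37.0%), 3295 higher (18.5%) and 3273 lower (18.4%). At least 2-fold changes were rarer, 478 genes higher (2.69%) and 381 lower (2.14%), and 83 genes were at least 4-fold higher and 69 at least 4-fold lower. Of the called genes, 71.6% moved by less than 1.5-fold. The median log2 change over all genes tested was 0.00164, and 90 in 100 genes lay between -0.79 and 0.82. Tested against a change of 1.5-fold instead of 0, edgeR called 387 genes higher and 348 lower. The high-dose and low-dose libraries did not overlap in 7966 genes (44.8%). Counts of gene groups below are to be read against these shares. CPM values are shares of a library, so RNA per cell was not measured.

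**Figure D1:**
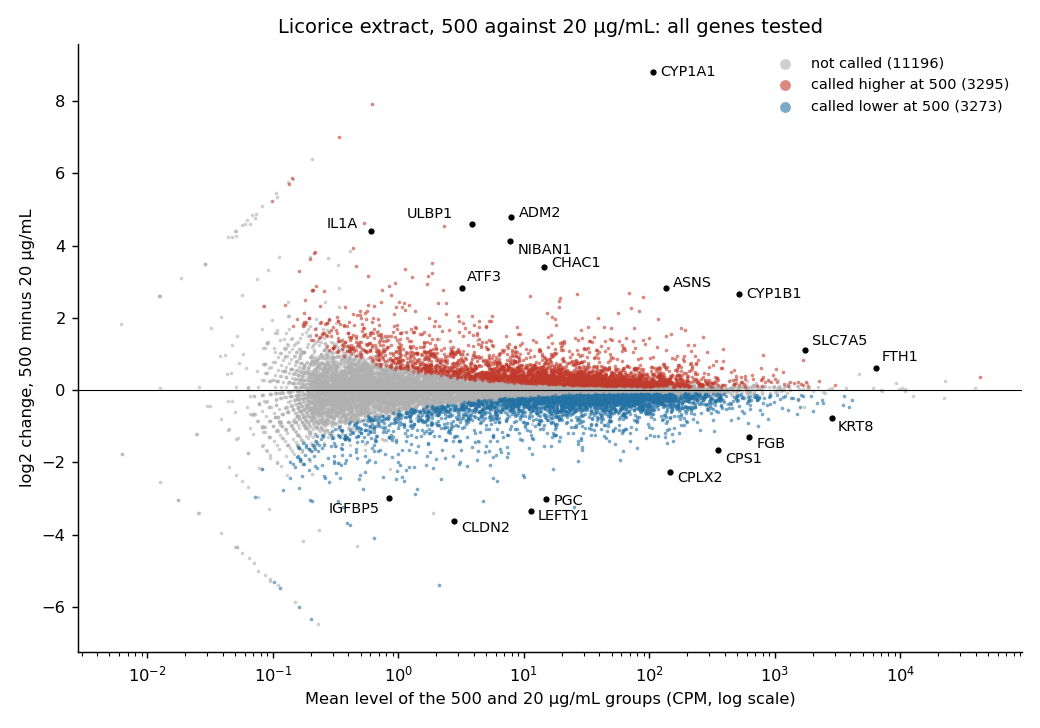
Log2 change between 500 and 20 µg/mL of licorice extract (vertical) against the mean CPM of both groups (horizontal, log scale) for the 17764 genes tested; red and blue points are the 3295 genes called higher and the 3273 called lower, and named genes are black. CYP1A1 stands apart at 8.82, and the abundant KRT8 (-0.78) and FTH1 (0.60) lie at the right.

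Most calls fell in the upper dose step. Against 20 µg/mL, 100 µg/mL gave 140 called genes (0.788%), 32 higher and 108 lower, and 500 against 100 µg/mL gave 6399 (36.0%). These comparisons share libraries with the main comparison and are given side by side, not as separate evidence. Against the vehicle, 20 µg/mL gave 5119 called genes (28.8%), but only 124 of them (0.698%) reached 2-fold. The vehicle libraries come from another series of sample codes, so a difference in handling and an effect of 20 µg/mL cannot be told apart. Genes whose steps ran in opposite directions (100 against 20, then 500 against 100 µg/mL, each called and at least 1.5-fold) numbered 1. It was NID2, a basement membrane protein, at 2.71 CPM at 20, 1.60 at 100 and 2.72 at 500 µg/mL.

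The largest single change was in CYP1A1, a target gene of the aryl hydrocarbon receptor, whose activity was not measured. CYP1A1 (ENSG00000140465, GRCh38 chr15:74719542-74725610, reverse strand), a monooxygenase, stood at 0.604, 0.232 and 0.562 CPM in the 20 µg/mL libraries and at 209, 218 and 218 in those at 500 µg/mL. It was already at 10.0, 9.53 and 7.89 CPM at 100 µg/mL, so the groups at the 3 doses were ordered with no overlap between 100 and either end. The fitted log2 change was 8.82 ± 0.23, which rests on 16, 6 and 16 counts in the low-dose libraries against 5505, 5005 and 5845. CYP1B1 (ENSG00000138061, GRCh38 chr2:38066973-38109902, reverse strand), a related monooxygenase, is expressed in these cells without the extract and went from 144, 142 and 137 to 889.9, 899 and 876 CPM (2.65 ± 0.04). The receptor's repressors rose too. AHRR, which competes for ARNT, went from 2.68, 2.36 and 1.69 to 7.66, 8.37 and 9.05 CPM (1.90 ± 0.16), and TIPARP, which ADP-ribosylates the receptor, went from 29.9 ± 0.893 to 137 ± 0.429 CPM (mean ± SD, n = 3). The receptor AHR itself was not called (-0.0111 ± 0.06).

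Not every gene usually counted as a target of the receptor followed. On the target list 5 of the 9 genes tested rose and 2 fell, with a median log2 change of 0.83 against 0.00164 over all genes. The aldehyde dehydrogenase ALDH3A1 (0.83 ± 0.04) and the bilirubin glucuronosyltransferase UGT1A1 (0.77 ± 0.06) rose. The quinone reductase NQO1 was at 1225, 1262 and 1229 CPM at 20 and 1051, 1104 and 1111 at 500 µg/mL and fell by a small amount (-0.19 ± 0.05). UGT1A6 fell as well (-0.28 ± 0.08), but its call was lost without high-dose replicate 2 (edgeR adjusted p = 0.0573), and UGT1A transcripts share their last exons. Among genes that PXR and CAR, other sensors of foreign compounds, activate, 0 of the 5 genes tested rose and 3 fell. Their median log2 change was -0.71, and 1 gene was called at least 2-fold lower. The changes ran from -2.71 to -0.45 ± 0.07, the latter that of the monooxygenase CYP3A5, which was called lower. Among the ABC efflux pumps ABCC6 fell (-1.40 ± 0.16) and ABCC3, a pump for conjugates, rose (0.31 ± 0.06).

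**Figure D2:**
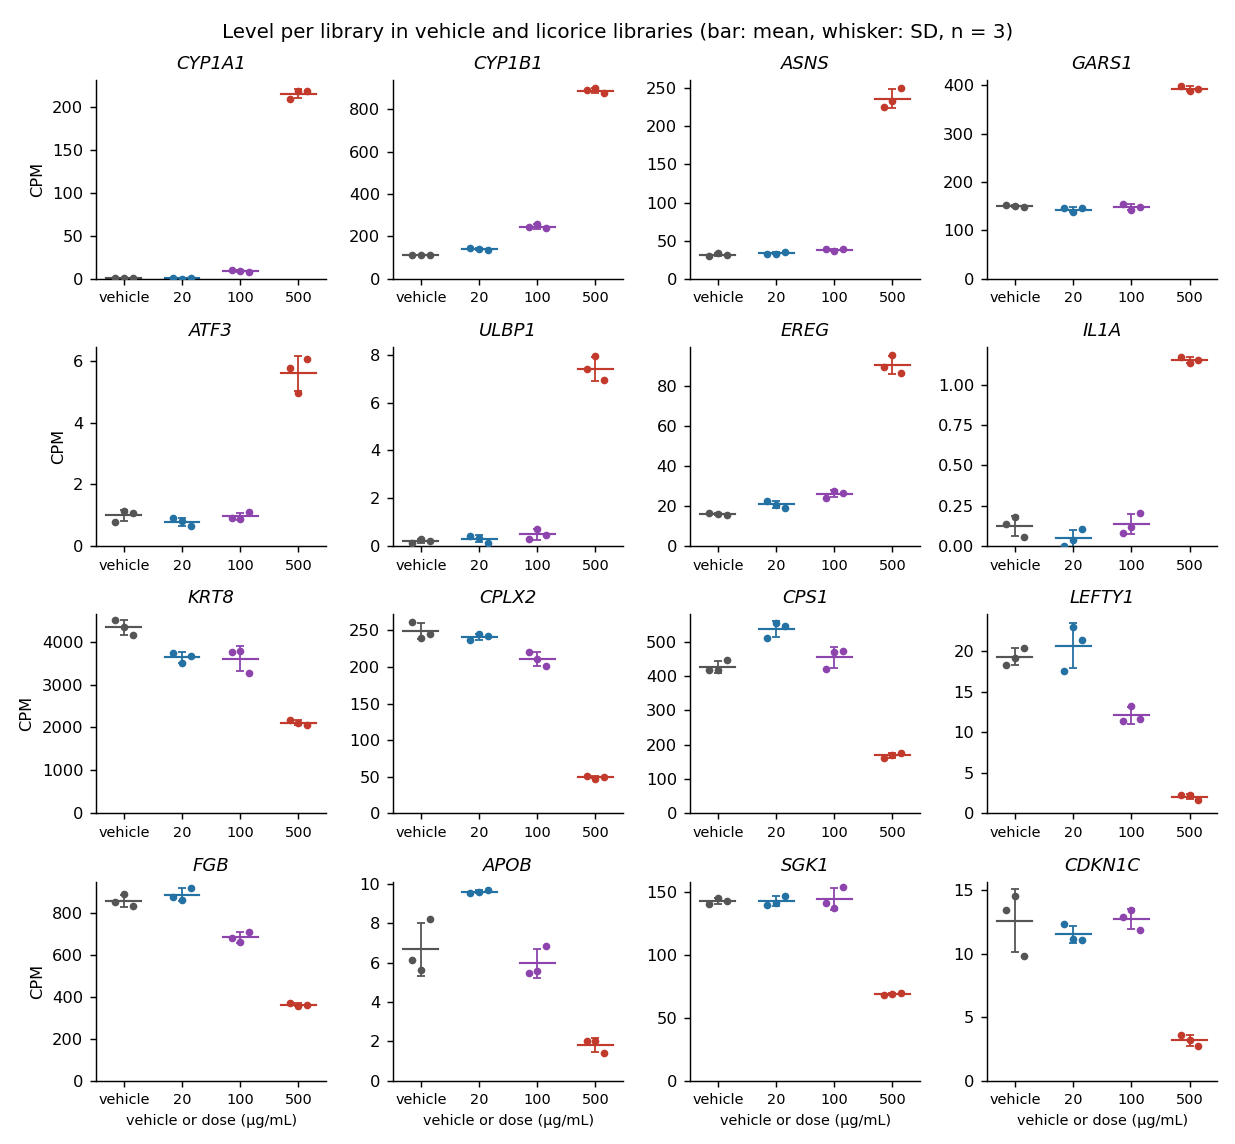
Level in CPM of 16 genes in each of 12 libraries (vehicle, then licorice extract at 20, 100 and 500 µg/mL; points are libraries, bars means, whiskers SD, n = 3). The 500 µg/mL libraries stand apart from the other 9 in every panel, and 8 genes (CYP1A1, CYP1B1, EREG, CPLX2, CPS1, LEFTY1, FGB and APOB) were called between 100 and 20 µg/mL as well.

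Many genes tied to ATF4 were also higher. Of the transcription factors of its circuit, 7 of the 11 genes tested rose and 1 fell (median log2 1.07). ATF4 mRNA was at 192, 176 and 188 CPM at 20 and 393, 383 and 389 at 500 µg/mL, 2.10-fold higher, though most control of ATF4 is known to lie in its translation, which was not measured. ATF3, a stress factor that feeds back on ATF4 targets, rose from 0.907, 0.811 and 0.633 to 5.76, 4.97 and 6.07 CPM (2.84 ± 0.19). DDIT3 (CHOP), which drives the death branch of the response, rose from 5.65 ± 0.236 to 25.0 ± 0.757 CPM, and its target TRIB3, a pseudokinase that restrains ATF4, from 47.3 ± 2.20 to 186 ± 6.45. All 4 genes were higher in each high-dose library than in any low-dose library, and 44.8% of all genes tested had no overlap either. The partner factors CEBPG (1.11 ± 0.06), NUPR1 (1.36 ± 0.09) and JDP2 (0.98 ± 0.10) rose, and FOXO3 fell (-0.46 ± 0.06). None of these 7 risers was called between 100 and 20 µg/mL.

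The kinases upstream of ATF4 and the brakes downstream of it were read from separate lists. Of the 9 genes for the eIF2 kinases, their partners and their phosphatase subunits, 2 rose, and both were phosphatase subunits that end the response. PPP1R15A (GADD34) went from 27.6, 27.3 and 25.3 to 75.3, 70.0 and 68.7 CPM (1.42 ± 0.06), and PPP1R15B by 0.38 ± 0.06. EIF2AK4 (GCN2), the kinase that senses uncharged transfer RNA, fell slightly (-0.17 ± 0.05), and EIF2AK3 (PERK) was not called (0.0422 ± 0.04). Of the genes that hold back the growth kinase mTORC1, SESN2, a leucine sensor and ATF4 target, rose from 18.7 ± 0.120 to 41.2 ± 1.98 CPM, and DDIT4 rose by 0.51 ± 0.07. The related SESN3 fell (-1.18 ± 0.06).

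Enzymes that make non-essential amino acids moved as a split group rather than as a block. On the list of asparagine, proline and transsulfuration enzymes 9 of the 16 genes tested rose and 4 fell, 6 of them at least 2-fold higher. ASNS (ENSG00000070669, GRCh38 chr7:97852118-97872542, reverse strand), asparagine synthetase, went from 32.8, 32.7 and 34.8 to 225, 234 and 250.3 CPM (2.82 ± 0.05). PCK2, the mitochondrial enzyme that draws on the citric acid cycle for phosphoenolpyruvate, went from 16.0, 20.4 and 19.3 to 117, 120.1 and 121 CPM. CBS, which commits homocysteine to cysteine synthesis, rose (1.99 ± 0.09), whereas CTH, the enzyme of the next step, was at 4.76 ± 0.174 and 4.96 ± 0.429 CPM and was not called (0.06 ± 0.13). Within proline metabolism PYCR1, a mitochondrial enzyme of synthesis, rose (1.39 ± 0.06), while its cytosolic counterpart PYCR3 (-0.55 ± 0.08) and the degrading enzyme PRODH (-0.89 ± 0.19) fell. The branched-chain aminotransferase BCAT1 rose (1.72 ± 0.06), and BCAT2 was not called (0.0344 ± 0.05).

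Serine and folate enzymes moved in both directions. Of that list 7 of the 15 genes tested rose and 5 fell. The serine synthesis enzymes PHGDH (24.3 ± 0.902 to 118 ± 1.90 CPM), PSAT1 (92.7 ± 6.44 to 295 ± 26.2) and PSPH (0.72 ± 0.10) rose. So did the mitochondrial folate enzymes SHMT2 (0.95 ± 0.04), MTHFD2 (1.72 ± 0.05), MTHFD1L (0.63 ± 0.06) and ALDH1L2 (1.72 ± 0.05). The cytosolic enzymes SHMT1 (225, 219 and 229 CPM at 20 and 137, 134 and 136 at 500 µg/mL) and MTHFD1 (-0.30 ± 0.04) fell, as did GLDC, which breaks glycine down (-1.03 ± 0.05).

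Of the amino acid carriers 12 of the 21 genes tested rose and 4 fell (median 0.23). SLC1A4, a carrier of alanine, serine and cysteine, went from 6.04, 6.76 and 6.50 to 31.2, 30.6 and 33.3 CPM. The glycine carrier SLC6A9 (2.01 ± 0.09), the arginine carrier SLC7A1 (1.29 ± 0.05) and the glutamine carrier SLC1A5 (0.82 ± 0.05) rose as well. SLC7A5, the abundant exchanger for large neutral amino acids, was among the 10 genes that gained most CPM, from 1188, 1041 and 1082 to 2489, 2421 and 2243. SLC7A11, the cystine importer, moved at both dose steps. It stood at 96.8 CPM in the vehicle, 135 at 20, 160.1 at 100 and 319 at 500 µg/mL, and was called already between 100 and 20 µg/mL (edgeR adjusted p = 0.044). SLC38A2, another carrier regulated by amino acid supply, was not called (-0.11 ± 0.05), and SLC43A2 (-0.58 ± 0.07) and SLC7A7 (-0.57 ± 0.05) fell.

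Aminoacyl-tRNA synthetases, which load amino acids onto transfer RNA, are encoded by separate nuclear genes for the cytosol and the mitochondrion, apart from a few shared enzymes. Of the cytosolic set 13 of the 20 genes tested rose and 2 fell (median log2 0.58), and 5 rose at least 2-fold. Of the mitochondrial set 3 of the 17 genes tested rose and 6 fell (median -0.12), none of them 2-fold. The glycine enzyme GARS1, which serves both compartments, went from 146, 137 and 146 to 398, 389 and 392 CPM (1.46 ± 0.04). CARS1 for cysteine (1.18 ± 0.05), AARS1 for alanine (1.15 ± 0.04), SARS1 for serine (1.12 ± 0.05) and MARS1 for methionine (1.07 ± 0.06) were the other 4 above 2-fold. QARS1, for glutamine, fell slightly (-0.16 ± 0.04). The mitochondrial cysteine enzyme CARS2 went opposite to CARS1, from 52.8, 53.8 and 49.1 to 38.9, 42.9 and 42.9 CPM (-0.32 ± 0.06).

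**Figure D3:**
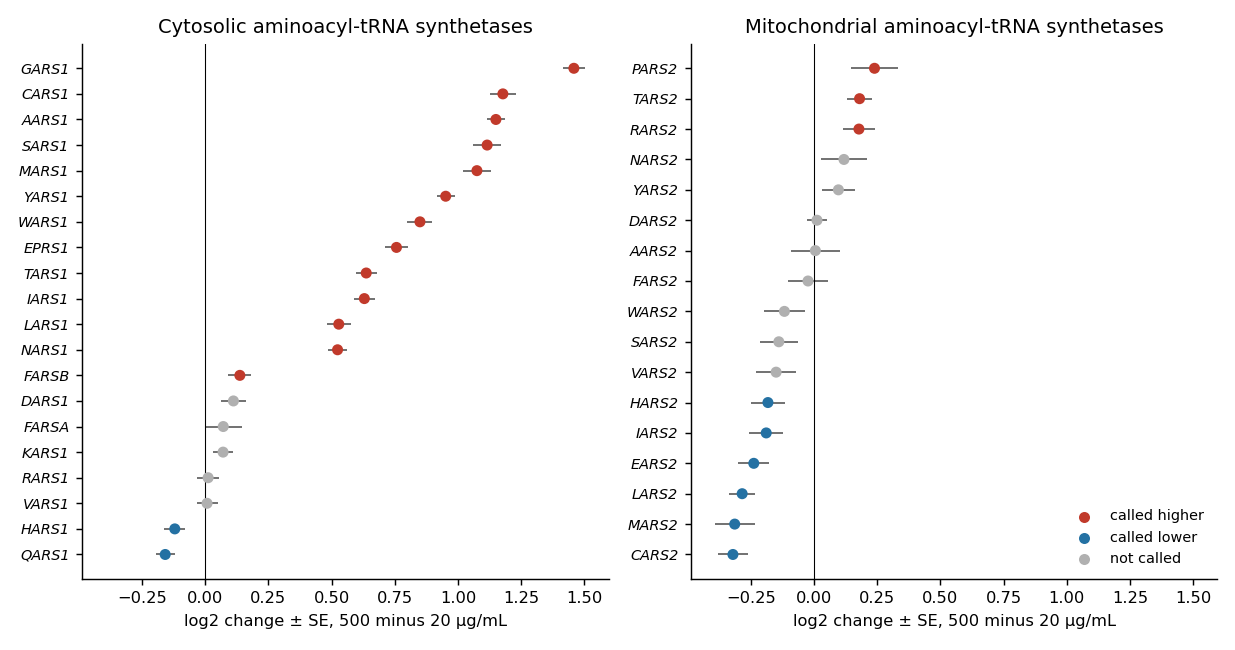
Log2 change ± SE between 500 and 20 µg/mL of each cytosolic (left, 20 genes) and mitochondrial (right, 17 genes) aminoacyl-tRNA synthetase; red genes were called higher, blue lower and grey not called. Cytosolic genes reach 1.46 (GARS1), whereas no mitochondrial gene reaches a change of 2-fold and the lowest is CARS2 at -0.32.

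ATF4 binds DNA with C/EBP proteins at a composite element, so the promoter windows of RefSeq (GRCh38.p14, 250 bases before to 50 after a start, the first window listed for each gene) were searched for its core TGATGNAA on both strands. The letters occurred in 3.62% of all 35116 windows and in 1.78% of the 12035 windows of genes tested here. They occurred in 23 of 320 windows of genes called at least 2-fold higher (7.19%) and in 8 of 228 of genes called at least 2-fold lower (3.51%). Of the cytosolic synthetases 6 of 16 windows held them (AARS1, CARS1, IARS1, MARS1, NARS1 and TARS1), and of the mitochondrial ones 1 of 14. The 5 genes of the amino acid, ATF4 and glutathione lists that rose at least 2-fold and hold the letters wholly before the start are shown with 30 bases on each side, on the gene's strand, 5′ to 3′, with the match in capitals (reverse-strand matches read TTNCATCA). The ASNS, BCAT1 and CHAC1 windows refer to starts that lie inside the gene's span in GENCODE 29. A match is a stretch of letters and not a measured binding site.
AARS1 (chr16:70289656-70289723, reverse strand): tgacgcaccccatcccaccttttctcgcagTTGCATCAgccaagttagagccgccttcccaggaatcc
ATF3 (chr1:212565186-212565253, forward strand): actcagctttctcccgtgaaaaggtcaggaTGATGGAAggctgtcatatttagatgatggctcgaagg
ASNS (chr7:97872439-97872506, reverse strand): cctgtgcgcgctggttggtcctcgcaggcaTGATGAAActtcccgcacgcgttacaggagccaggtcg
BCAT1 (chr12:24949112-24949179, reverse strand): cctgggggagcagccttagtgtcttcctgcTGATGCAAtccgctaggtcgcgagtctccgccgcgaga
CHAC1 (chr15:40953232-40953299, forward strand): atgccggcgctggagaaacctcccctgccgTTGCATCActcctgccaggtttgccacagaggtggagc
The core of the aryl hydrocarbon receptor element, TNGCGTG on either strand, occurred in 11 of 320 windows of genes at least 2-fold higher (3.44%) and in 7.19% of the windows of all genes tested. Of the listed targets of the receptor 2 of 7 windows held it (28.6%), those of UGT1A6 (log2 change -0.28) and NQO1 (-0.19). The CYP1A1 and TIPARP windows did not hold it, which says only that the letters are not in these 300 bases.

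The other genes with the largest rises were of mixed function. ADM2, a peptide of the calcitonin family, went from 0.604, 0.579 and 0.457 to 14.9, 16.4 and 14.6 CPM (4.80 ± 0.22), and the stress protein NIBAN1 from 0.718, 0.773 and 1.02 to 12.9, 14.7 and 16.5 (4.12 ± 0.18). CHAC1, which cleaves glutathione, went from 2.49, 2.32 and 2.60 to 26.3, 27.1 and 26.3 CPM (3.42 ± 0.12). The rule that named them required libraries without overlap. STC2, a secreted glycoprotein (25.7 ± 1.14 to 152 ± 5.17 CPM), EEF1A2, an elongation factor usually found in neurons and muscle (2.67 ± 0.10), the kinesin KIF21B (2.55 ± 0.11) and AKNA, a centrosomal protein (2.62 ± 0.10), complete the 15 largest rises at 10 CPM or more with the genes named above and GDF15.

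Chaperones moved in both directions. Of the endoplasmic reticulum chaperones 8 of the 18 genes tested rose and 4 fell, none by 2-fold. HSPA5 (BiP), the marker of unfolded protein in this compartment, was at 471, 475 and 461 CPM at 20 and 614, 586 and 619 at 500 µg/mL (0.37 ± 0.04), and HERPUD1, a degradation factor, rose by 0.36 ± 0.05. CRELD2 (-0.45 ± 0.07) and CALR (-0.28 ± 0.04) fell. The sensor ERN1 (IRE1) rose (0.51 ± 0.05), and XBP1, whose mRNA it splices, fell (-0.23 ± 0.04). Splicing cannot be read from gene counts.

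Heat-shock genes were lower as a group: 1 of the 16 genes tested rose and 12 fell (median -0.20). DNAJA1, a co-chaperone of HSP70, went from 245, 258 and 257 to 169, 165 and 184 CPM (-0.55 ± 0.05), and HSPA1A (-0.48 ± 0.06) and HSP90AA1 (-0.22 ± 0.04) fell. The riser was HSPA9, the mitochondrial HSP70 (0.40 ± 0.03). Proteasome subunits were called in 11 of 31, a share near that of all genes, 2 higher and 9 lower. The largest falls there were in the base subunits PSMD1 (-0.46 ± 0.05) and PSMD2 (-0.43 ± 0.05). On the autophagy list 5 of 25 genes rose and 6 fell, near the share of all genes in total. SQSTM1 (p62), a cargo receptor, went from 586, 524 and 530.5 to 1168, 1034 and 1022 CPM (0.98 ± 0.06), MAP1LC3B rose (0.50 ± 0.05), and TFEB, the master regulator of lysosome genes, fell (-0.96 ± 0.08).

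Redox genes split as well. A549 cells carry a KEAP1 mutation, which keeps the NRF2 targets high without any treatment. On the glutathione and thioredoxin list 8 of 16 genes rose and 6 fell. GCLM, the modifier of glutathione synthesis, rose (0.60 ± 0.04), and its catalytic partner GCLC fell (-0.31 ± 0.04). GPX2, a glutathione peroxidase of epithelia, went from 242, 199 and 275 to 119.7, 97.5 and 95.1 CPM (-1.20 ± 0.11). Among aldo-keto reductases, which NRF2 drives strongly in this line, 1 of the 9 genes tested rose and 4 fell, with AKR1C1 at 794 ± 32.7 against 659 ± 16.0 CPM. AKR1C genes are near-identical in sequence, so their reads can be exchanged.

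Heme and iron genes gave HMOX1, heme oxygenase, at 42.9, 37.8 and 42.9 CPM at 20 and 123, 100.2 and 94.9 at 500 µg/mL (1.36 ± 0.08). FTH1, the ferritin heavy chain that stores the released iron, rose from 5364, 4569 and 5422 to 8350.2, 7346 and 7643 CPM, and FTL was not called (0.20 ± 0.09). SLC40A1 (ferroportin), the iron exporter, fell from 54.0 ± 2.22 to 29.1 ± 0.947 CPM, and SLC39A14, an importer, rose (0.58 ± 0.05). Of the metallothioneins MT1X fell (-0.47 ± 0.15) and MT2A rose (0.62 ± 0.19). Both calls rest on few libraries: MT1X was not called without low-dose replicate 3 (edgeR adjusted p = 0.0826) and MT2A not without high-dose replicate 1 (0.065) or low-dose replicate 2 (0.0947).

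Several ligands of the EGF receptor family rose. On the list of the receptor family and its ligands 7 of the 12 genes tested rose, 2 fell and 3 were not called (median 0.75). EREG (epiregulin) went from 22.6, 20.7 and 19.1 to 89.8, 95.7 and 86.8 CPM (2.13 ± 0.06) and AREG (amphiregulin) from 7.03, 8.31 and 6.57 to 30.7, 28.1 and 26.4 (1.96 ± 0.10). TGFA (0.94 ± 0.10), HBEGF (1.03 ± 0.26), BTC (1.05 ± 0.28) and NRG1 (0.64 ± 0.07) were also higher. Among the receptors ERBB3, the partner without kinase activity, fell from 49.6 ± 3.93 to 23.1 ± 1.84 CPM (-1.11 ± 0.07).

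Genes read out by the MAP kinase pathway rose in 13 of 19 and fell in 2 (median 0.49). The early response factor EGR1 went from 2.12, 1.66 and 2.25 to 6.75, 5.80 and 4.95 CPM (1.53 ± 0.18). The phosphatase DUSP5 (1.47 ± 0.08) and the factors ETV4 (1.46 ± 0.06) and ETV5 (1.17 ± 0.05) were higher. CCND1, cyclin D, went the other way (-0.28 ± 0.05), and EPHA4 fell (-0.93 ± 0.32) but not when high-dose replicate 1 was left out (edgeR adjusted p = 0.162) or low-dose replicate 2 (0.0505).

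Secreted modulators of developmental pathways held some of the largest changes, in both directions. LEFTY1 (ENSG00000243709, GRCh38 chr1:225886282-225911382, reverse strand), an antagonist of Nodal, was at 18.3, 19.2 and 20.4 CPM in the vehicle, 17.6, 23.0 and 21.4 at 20, 11.4, 13.2 and 11.6 at 100 and 2.24, 2.22 and 1.68 at 500 µg/mL. It fell by 10.1-fold over the whole range (-3.34 ± 0.16) and its log2 change over the step from 20 to 100 µg/mL was -0.77 ± 0.12 (edgeR adjusted p = 5.09e-05). LEFTY1 and its neighbour LEFTY2 are near-identical and can exchange reads. The Wnt antagonist DKK1 went from 78.3 ± 3.74 to 27.6 ± 1.06 CPM. RNF43, a feedback gene of Wnt signalling, was lower (-1.19 ± 0.20). On this list 1 of the 13 genes tested rose and 9 fell. The riser was INHBE, an activin subunit, from 0.189, 0.116 and 0.281 to 2.27, 2.14 and 1.83 CPM (3.36 ± 0.38).

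Genes of BMP feedback leaned downward, where 2 of the 13 genes tested rose and 6 fell. ID2 (-0.96 ± 0.10) and ID3 (-0.75 ± 0.07), inhibitors of helix-loop-helix factors, fell, and ID1 was at 167, 169 and 177 CPM at 20 and 156, 163 and 161 at 500 µg/mL and was not called (edgeR adjusted p = 0.146). GREM1, a BMP antagonist, had 2, 1 and 6 reads at 20 and 27, 27 and 24 reads at 500 µg/mL (3.15 ± 0.61, or 4.05 without low-dose replicate 3). Of the YAP targets 1 of the 10 genes tested rose and 6 fell, with ANKRD1 (-0.82 ± 0.10) and CCN2 (-0.54 ± 0.11) lower and the receptor AXL higher (0.62 ± 0.06). Of the insulin-like growth factor binding proteins IGFBP5 fell from 1.13, 1.24 and 2.11 to 0.152, 0.218 and 0.186 CPM (-2.99 ± 0.41). IGFBP1 rose from 0.113, 0.348 and 0.141 to 0.834, 0.872 and 1.08 (2.20 ± 0.44, or 2.82 without low-dose replicate 2).

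Matrix and epithelial-mesenchymal genes rose in 10 of 18 and fell in 6. The integrin ITGB6, which activates latent TGF-beta, fell (-1.40 ± 0.17), as did fibronectin FN1 (2686 ± 155 to 2115 ± 77.9 CPM). The collagen COL4A2 rose (0.58 ± 0.06). CDH1, E-cadherin, fell (-0.43 ± 0.04), and so did SNAI2, a repressor of CDH1 (-0.82 ± 0.10).

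On the p53 target list 7 of 19 genes rose and 2 fell, near the share of all genes in total. GDF15, a secreted stress signal, went from 5.55, 5.45 and 6.40 to 33.6, 30.9 and 32.4 CPM (2.47 ± 0.10), GADD45A rose (1.16 ± 0.07) and CDKN1A (p21) rose (0.81 ± 0.05). GDF15, GADD45A and CDKN1A are known targets of ATF4 or CHOP as well as of p53. MDM2, the ligase that degrades p53, rose by 0.42 ± 0.06, TP53I3 was lower (-0.37 ± 0.07), and 10 of 19 were not called. Of the death genes, PMAIP1 (NOXA) went from 5.21, 4.79 and 4.18 to 14.1, 14.0 and 13.5 CPM (1.55 ± 0.09), BBC3 (PUMA) rose (0.79 ± 0.12) and the death receptor TNFRSF10B rose (0.35 ± 0.05). BCL2L11 (BIM) fell (-0.46 ± 0.07).

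Ligands of NKG2D, the activating receptor of natural killer cells, rose in 4 of 7 genes tested and fell in none. ULBP1 (ENSG00000111981, GRCh38 chr6:149964007-149973710, forward strand) went from 0.416, 0.348 and 0.141 to 7.39, 7.93 and 6.93 CPM (4.61 ± 0.30), which rests on 11, 9 and 4 reads in the low-dose libraries. Its neighbour ULBP2 rose from 0.189, 0.270 and 0.352 to 0.910, 0.872 and 0.596 CPM (1.52 ± 0.38), and MICA rose (0.40 ± 0.08). The ULBP genes are paralogs whose reads can be split, and MICB, the other gene called, lost its call without high-dose replicate 1 (edgeR adjusted p = 0.0957) or low-dose replicate 2 (0.177), and with only the 6 compared libraries (0.0635). DESeq2 did not call it (adjusted p = 0.0661), nor did edgeR without the filter (0.108).

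Cytokine and acute-phase genes moved in both directions. The interleukins IL1A and IL1B rose from near nothing: IL1A had 0, 1 and 3 reads at 20 and 31, 26 and 31 at 500 µg/mL, and IL1B went from 0.302, 0.270 and 0.352 to 2.12, 1.44 and 1.56 CPM (2.45 ± 0.34). The fitted change of IL1A (4.41 ± 0.74) became 5.58 without low-dose replicate 3. CXCL8, the neutrophil attractant, rose (0.80 ± 0.17). The chemokines CCL2 (-0.95 ± 0.18) and CXCL1 (-0.85 ± 0.11) and the acute-phase genes SAA1 (-0.56 ± 0.07) and SAA2 (-0.89 ± 0.12) fell, where SAA1 and SAA2 can exchange reads. Of the NF-kB subunits and inhibitors 1 of 11 rose and 4 fell. The inhibitor TNFAIP3 was lower (-0.57 ± 0.08), as was NFKBIA (-0.36 ± 0.07). Antigen presentation genes were called in 5 of 13 and interferon-stimulated genes in 5 of 13, both near the share of all genes, with IFIT1 lower (-0.83 ± 0.07).

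Cholesterol genes moved in both directions. On that list 8 of the 25 genes tested rose and 9 fell, none by 2-fold. The entry enzyme HMGCS1 went from 193, 204 and 192 to 124, 117 and 116 CPM (-0.72 ± 0.05). INSIG1, a partner of the sterol sensor, rose (0.66 ± 0.04). INSIG1 was at 75.9 ± 0.144 CPM in the vehicle, 51.7 ± 0.696 at 20 and 81.5 ± 3.05 at 500 µg/mL.

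Fatty acid genes showed the same mix. FASN fell (-0.48 ± 0.06), and SCD, the desaturase, rose from 979.9, 961 and 948 to 1386, 1325 and 1343 CPM (0.49 ± 0.04), as did its regulator SREBF1 (0.53 ± 0.06). PLIN2, the coat of lipid droplets, rose from 49.9, 53.2 and 55.3 to 156, 139.8 and 138 CPM (1.45 ± 0.06). PLIN2 is a PPAR target, and of that list 5 of the 13 genes tested rose and 5 fell.

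Genes of hypoxia and glycolysis were split: 7 of the 21 genes tested rose and 7 fell. VEGFA, the vascular growth factor and also an ATF4 target, rose from 37.4, 38.2 and 38.1 to 83.6, 84.5 and 86.6 CPM (1.16 ± 0.05), and the hexokinase HK2 (1.34 ± 0.14) and the enolase ENO2 (1.14 ± 0.10) rose. The abundant LDHA (1830.3 ± 58.5 to 1328 ± 37.2 CPM), ENO1 (-0.37 ± 0.06) and CA9 (-0.62 ± 0.05), a marker of hypoxia, fell. Subunits of the respiratory chain encoded in the nucleus fell in 14 of 28 and rose in none (median -0.18), all by less than 2-fold, with ATP5F1A (-0.40 ± 0.06) and ATP5F1B (-0.35 ± 0.06) among them. Of the 13 subunits encoded in mitochondrial DNA none was called by edgeR.

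**Figure D4:**
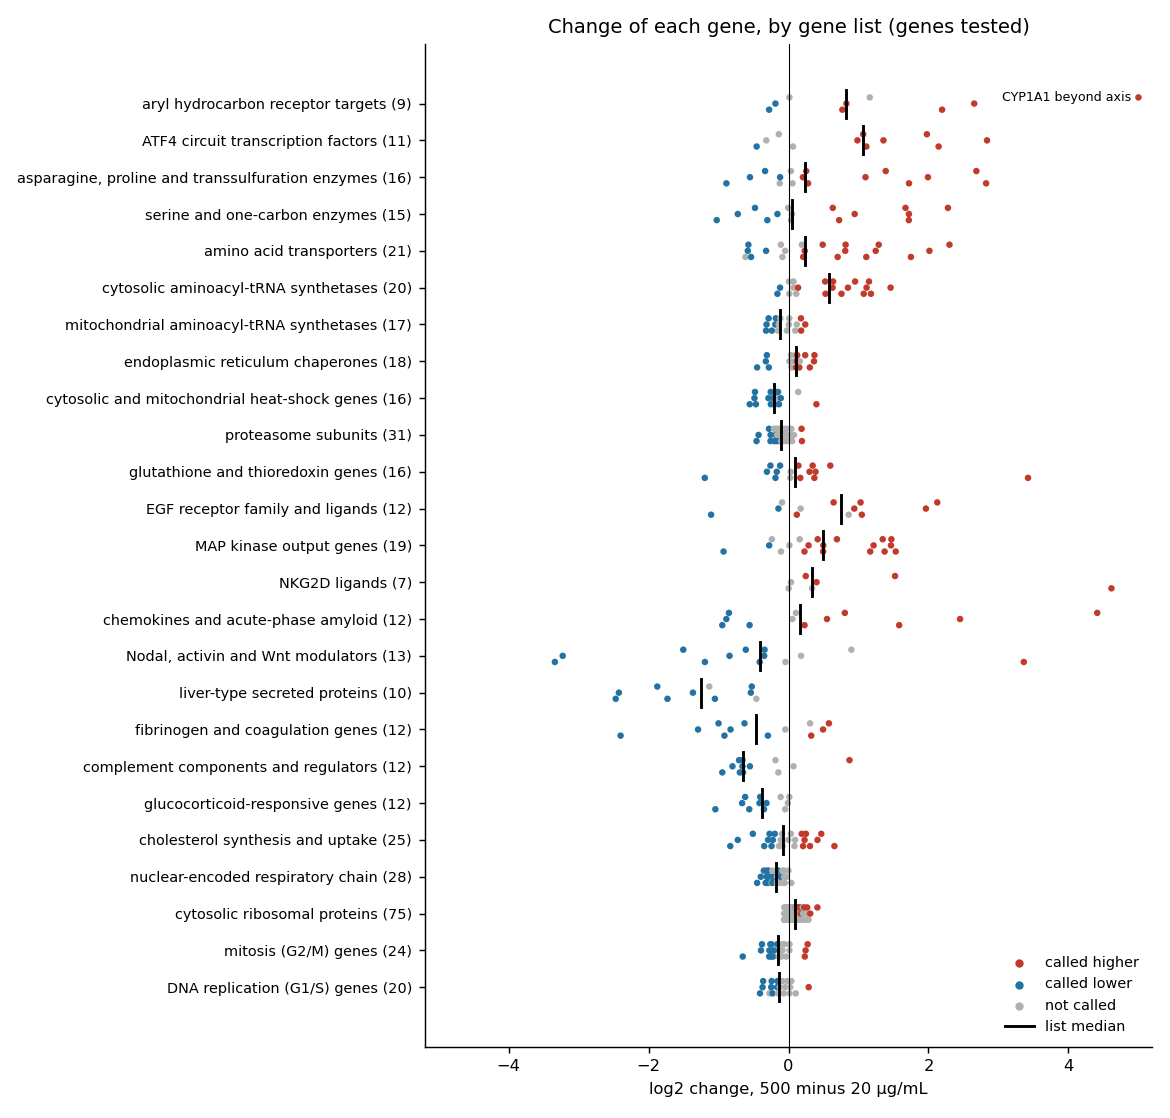
Log2 change between 500 and 20 µg/mL (horizontal) of every tested gene in 25 lists (rows, number of genes in brackets); red genes were called higher, blue lower and grey not called, and the black bar is the list median. Medians run from -1.25 for the liver-type secreted proteins to 1.07 for the ATF4 circuit, and CYP1A1 (8.82) lies beyond the axis.

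Secreted plasma proteins, several of which A549 cells make at low levels, were lower. Of the liver-type proteins none rose and 8 of 10 fell, 6 of them at least 2-fold (median -1.25). HPX, which binds heme, went from 3.32, 3.44 and 4.39 to 0.758, 0.610 and 0.633 CPM (-2.47 ± 0.22), and APOB, the core of low-density lipoprotein, from 9.52, 9.62 and 9.70 to 2.01, 2.00 and 1.38 (-2.42 ± 0.14). The haptoglobin gene HP (-1.87 ± 0.18), transferrin TF (-1.73 ± 0.12), APOH (-1.37 ± 0.11) and the protease inhibitor SERPINA1 (-1.05 ± 0.12) fell too. ALB, AFP and TTR did not pass the filter.

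Coagulation genes fell in 7 of 12 and rose in 3. The fibrinogen chains, which lie side by side on chromosome 4 and make up the clot, fell together. FGB (ENSG00000171564, GRCh38 chr4:154562956-154571086, forward strand) was at 877, 860.2 and 920.2 CPM at 20, 681, 659 and 711 at 100 and 370.3, 356 and 359 at 500 µg/mL (-1.29 ± 0.04). FGA (975 ± 59.0 to 487 ± 10.9 CPM) and FGG (-0.92 ± 0.06) followed, and all 3 were called lower already at 100 µg/mL (edgeR adjusted p = 2.12e-06, 2.51e-08 and 0.000615 for FGA, FGB and FGG). KNG1, the precursor of bradykinin, fell from 16.9 ± 3.05 to 3.21 ± 0.224 CPM. F12, the contact factor, rose (0.58 ± 0.11). Complement components fell in 8 of 12, with C3 from 1853, 1677 and 1953 to 1240.0, 1136 and 1118 CPM (-0.65 ± 0.05) and CFI at -0.95 ± 0.08. The riser was CD55, a membrane inhibitor of complement (0.87 ± 0.08).

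The plasminogen system moved in both directions. PLAU, urokinase, went from 57.7, 59.8 and 58.4 to 29.6, 31.0 and 30.1 CPM (-0.96 ± 0.06). The protease inhibitor SERPINE2 (1.01 ± 0.08), the tissue activator PLAT (1.03 ± 0.25) and the urokinase receptor PLAUR (0.78 ± 0.10) rose. Of the 7 genes of this list 4 rose and 1 fell.

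Genes raised by glucocorticoids were lower: 0 of the 12 genes tested rose and 8 fell. SGK1, a kinase that regulates sodium transport, was at 142, 137 and 154 CPM at 100 µg/mL, much as at 20 µg/mL (139, 141 and 147), and at 68.5, 69.0 and 70.0 at 500 µg/mL (-1.05 ± 0.04). PER1 (-0.66 ± 0.06), DUSP1 (-0.62 ± 0.04) and FKBP5 (-0.56 ± 0.03) fell. The receptor NR3C1 fell by a small amount (-0.22 ± 0.04), and HSD11B1, which regenerates cortisol, fell (-0.74 ± 0.14). The vitamin D receptor VDR rose (0.96 ± 0.11), and GREB1, an estrogen-responsive gene, fell (-0.93 ± 0.07). Clock genes were called in 7 of 16, near the 37.0% of all genes, 3 higher and 4 lower (median 0.03). Among them the repressor NR1D2 was higher (7.03 ± 0.384 to 17.9 ± 0.469 CPM), NPAS2 higher (0.86 ± 0.07) and PER2 lower (-1.07 ± 0.05). With a single time point, a phase shift and a change in level cannot be told apart.

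Epithelial identity genes were altered in both directions. CLDN2, a claudin that forms cation pores, went from 6.31, 3.98 and 5.27 to 0.720, 0.305 and 0.223 CPM (-3.61 ± 0.31, or -4.29 without high-dose replicate 1) and was already lower at 100 µg/mL (3.39, 1.34 and 2.81). OCLN, occludin, rose (1.00 ± 0.11), as did the sealing claudin CLDN1 (0.41 ± 0.06). The adaptor CGN fell (-0.79 ± 0.08). Of the surfactant, mucin and alveolar genes 4 of the 13 genes tested rose and 6 fell. PGC, a protease of alveolar type II cells and stomach, went from 25.2, 26.1 and 29.7 to 4.21, 2.83 and 2.87 CPM (-3.02 ± 0.11), SFTPD, surfactant protein D, from 7.18, 10.6 and 8.54 to 1.78, 2.27 and 2.16 (-2.08 ± 0.13), and the lineage factor NKX2-1 fell at under 2 CPM (-1.41 ± 0.35). LAMP3 (2.10 ± 0.21) and the airway mucin MUC5AC (1.17 ± 0.16) rose.

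The remaining large falls were in genes of mixed function, named by the same rule. CPLX2, which clamps vesicle fusion at synapses, went from 237, 245 and 242 to 51.2, 47.5 and 50.2 CPM (-2.28 ± 0.04). CPS1, the entry enzyme of the urea cycle, which lung tumours without LKB1 are known to express, went from 511, 555 and 545 to 162, 169 and 176 (-1.67 ± 0.04). The adrenergic receptor ADRA2A (-2.51 ± 0.13), the potassium channel KCNJ16 (-2.17 ± 0.07), neurotensin NTS (92.1 ± 8.36 to 24.1 ± 1.48 CPM), the anion channel BEST2 (-1.77 ± 0.08), the small GTPase RHOV (-1.72 ± 0.11), the ethanolamine kinase ETNK2 (-1.69 ± 0.05), C1QTNF6 (-1.65 ± 0.08) and the integrin ITGA1 (-1.60 ± 0.05) fell.

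By absolute level the largest losses were in structural and metabolic genes. KRT8, keratin 8, went from 3728, 3491 and 3672 to 2180.3, 2103 and 2057 CPM and KRT18, its partner, from 2424, 2374 and 2435 to 1693, 1594 and 1538. ALDH1A1, an aldehyde dehydrogenase very abundant in this line, went from 4499 ± 206 to 3276 ± 135 CPM, PKM, pyruvate kinase, from 3997 ± 216 to 3029 ± 166, and ACTB fell (-0.28 ± 0.05). The largest gain in CPM was that of MT-RNR2, the large mitochondrial ribosomal RNA (0.35 ± 0.12), but its call was lost without high-dose replicate 1 (edgeR adjusted p = 0.139) or low-dose replicate 2 (0.134). Among the other large gains were EEF2 (0.25 ± 0.04) and HMGA1 (0.62 ± 0.09). KRT8, KRT18, FTH1, PKM and ACTB have processed pseudogenes with which reads can be shared.

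The lists of the growth machinery differed. Cytosolic ribosomal protein genes were called in 9 of 75, against 37.0% of all genes, all higher and all under 2-fold (median 0.09), with RPL12 at 0.41 ± 0.07. Host genes of small nucleolar RNAs and nuclear noncoding RNAs rose in 9 of 16 and fell in 1. ZFAS1 went from 76.1, 72.9 and 73.7 to 135, 134 and 155 CPM (0.93 ± 0.09) and GAS5 from 90.0, 93.8 and 91.8 to 125, 141 and 155 (0.61 ± 0.06), and DANCR fell (-0.39 ± 0.10). Transcripts of several of these genes are known to be degraded during translation.

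Cell cycle genes were modestly lower. G1/S replication genes fell in 8 of 20 and rose in 1, with RRM2, a subunit of ribonucleotide reductase, at -0.41 ± 0.04. Mitosis genes fell in 12 of 24 and rose in 3, with KIF20A (-0.65 ± 0.06) and AURKA (-0.38 ± 0.05) lower. MKI67, the proliferation marker, overlapped between the groups with 416, 346 and 393 CPM at 20 and 355, 319 and 282 at 500 µg/mL, and its call (-0.27 ± 0.09, edgeR adjusted p = 0.0147) was lost without high-dose replicate 3 (0.134) or low-dose replicate 1 (0.0974). Larger changes were in cell cycle inhibitors. CDKN1C (p57) went from 12.3, 11.2 and 11.1 to 3.56, 3.18 and 2.76 CPM (-1.86 ± 0.13) and CDKN2C (p18) from 25.8, 25.3 and 24.2 to 11.2, 9.85 and 10.8 (-1.24 ± 0.06), opposite to CDKN1A. Histone transcripts that carry a poly(A) tail fell in 7 of 12 and rose in 1, with H2AC6 at -1.02 ± 0.08.

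A ginseng extract of the same sample-code set allows the same dose step to be compared between extracts. Between 20 and 500 µg/mL of Panax Ginseng extract 214 genes were called (1.2%), and 3738 genes (21%) differed between the extracts in their dose change (edgeR's test of the interaction). Of 12 genes chosen for this test with their licorice changes known, 11 differed. That choice favours a difference, so the count of 11 is not to be set against the 21%. With ginseng ASNS (0.24 ± 0.05, edgeR adjusted p = 0.00988) and CHAC1 (0.55 ± 0.15, 0.0470) were called higher. CYP1A1 (0.12 ± 0.58, edgeR adjusted p = 0.985) and ULBP1 (-0.52 ± 0.38, 0.751) were not called with ginseng. The changes with licorice were 2.82 for ASNS, 3.42 for CHAC1, 8.82 for CYP1A1 and 4.61 for ULBP1. FGB (-0.13 ± 0.04, edgeR adjusted p = 0.145) and CLDN2 (-0.22 ± 0.19, 0.806) were not called with ginseng either, against falls of -1.29 and -3.61 with licorice. HMGCS1 was called higher with ginseng (0.24 ± 0.05, edgeR adjusted p = 0.0068), opposite in sign to -0.72 with licorice. ID1 was the gene whose interaction was not called (edgeR adjusted p = 0.141, difference -0.15).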

How the data were processed

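The submitters' processing notes name FastQC 0.11.9, Trim Galore 0.6.5, STAR 2.7.3a, RSEM 1.3.3 and GRCh38; no source used here gives the annotation release or the setting for strand. The deposited table holds expected counts per gene as the authors made them (75.982% of values above 0 are whole within 1e-09), with 60675 Ensembl identifiers and 270 columns, of which 210 were not used. Per the labels' protocols the libraries were directional, 100 bp and paired-end. Expected counts were rounded, filtered with filterByExpr and scaled by TMM. All 60 libraries were fitted with 1 mean per group (25 groups, 35 residual degrees of freedom, common biological variation 5.59%) by edgeR 4.0.16 in R 4.3.3, with adjusted p below 0.05 as the threshold. After ±, a log2 change of 500 against 20 µg/mL has the larger of an SE from the F statistic and the counting error of the summed reads; other log2 changes have the former, and CPM values are means ± SD or single libraries. Every fold change is 500 over 20 µg/mL unless other groups are named. DESeq2 1.42.0, RLE scaling, no filter, only the 6 libraries, a 1.5-fold null, a replicate block and leaving out each library were tried. Replicate libraries differed beyond sampling noise, so none was counted as a duplicate.

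The genes and lists were chosen with earlier results of these data known. Genes named are those of the 15 largest rises and falls at 10 CPM or more with no overlap of libraries, the 10 largest gains and losses in CPM, members of lists of at most 12 genes, the 6 smallest adjusted p and contrary members of longer lists, and 12 set genes. Only some are printed. BCAT2, CTH, EGR1, FTL, IARS1, MTHFD1L, NARS1, NKX2-1, PSPH, SLC1A5, SLC38A2 and TARS1 fall outside this rule: they were picked once their values had been seen. Positions are those of GENCODE 29, and promoter windows those of RefSeq (GRCh38.p14).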

Additional observations from a re-analysis of the deposited data

Results flagged for a closer look

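The dose change between 20 and 500 µg/mL differed between the licorice and the Panax Ginseng extract, by edgeR's test of the interaction over all genes, for 3738 of 17764 genes (21%). It differed for 11 of 12 genes set for this test, which were chosen with their licorice changes known. The difference (licorice minus ginseng, log2) was 8.70 for CYP1A1, 5.14 for ULBP1, 2.87 for CHAC1, 2.59 for ASNS and 2.41 for GDF15. It was 1.17 for SLC7A11 and 1.11 for HMOX1. The sign was negative for CLDN2 (-3.39), FGB (-1.17), HMGCS1 (-0.96) and MKI67 (-0.49). Each group had 3 libraries, so no library was tested as an outlier.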

How the results depend on the processing

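Counts of called genes stayed within 1.5 times of 6568 with RLE scaling, DESeq2, no filter, only the 6 compared libraries and a replicate block. Leaving out 1 library gave 5773 to 5939 called genes, 2875 to 2970 higher and 2891 to 2989 lower, and 440 to 470 at least 2-fold higher and 339 to 387 at least 2-fold lower. A test against a 1.5-fold change called 735 genes, 387 higher and 348 lower, of which 297 were at least 2-fold higher and 245 at least 2-fold lower, since small changes cannot pass it. Of the printed genes called at 0, 114 did not pass that test. Without the filter 31 genes in place of 1 had opposite dose steps. That gene, NID2, was at 0.00431 between 500 and 20 µg/mL and changed sign to -0.000806 without the filter, to -2.6e-05 with only the 6 libraries and to values between -0.0551 and 0.0811 without single libraries. AHR, at -0.0111, ranged from -0.0696 to 0.0395 without single libraries. None of these values of NID2 and AHR was called. Whether the replicate numbers pair the libraries could not be settled. In their deviations from the group means, same-numbered libraries of the 2 doses correlated at 0.34, 0.21 and -0.14. Libraries with different numbers correlated at -0.45 to 0.30, and 3 libraries a dose are too few to decide. With the replicate number as a block 7021 genes were called in place of 6568, 3528 of them higher and 3493 lower. Depth limits the folds of printed genes with under 20 counts in every library of 1 dose, which were CYP1A1, ADM2, ULBP1, ULBP2, IL1A, IL1B, GREM1, INHBE and IGFBP1 at 20 µg/mL and CLDN2, IGFBP5, EPHA4 and NKX2-1 at 500 µg/mL.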

Other observations

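Of the ribosome biogenesis genes 4 of the 18 genes tested rose and 5 fell, none by 2-fold, with NPM1, a nucleolar chaperone, at 0.20 ± 0.05 and BOP1, a factor of the large subunit, at -0.28 ± 0.07. Of the insulin-like growth factor system, partly described above, 4 of the 13 genes tested rose and 4 fell. The adaptor IRS1 fell (-0.45 ± 0.05), the abundant binding protein IGFBP4 fell (-0.29 ± 0.05) and IGFBP6 rose (0.41 ± 0.09). Of the LXR targets 4 of the 8 genes tested rose and 1 fell, with APOE at 0.56 ± 0.08 and LPCAT3, a phospholipid acyltransferase, at 0.32 ± 0.07. Among the G1 regulators MYC rose (0.29 ± 0.07) and cyclin D3, CCND3, fell (-0.62 ± 0.07). NADPH-producing ME1 (0.31 ± 0.04) and IDH1 (0.27 ± 0.04) rose.

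By gene class, 3020 of the 13965 protein-coding genes tested were called higher and 3024 lower. The counts of each class are to be read against 18.5% called higher and 18.4% called lower over all genes tested. Transcribed unprocessed pseudogenes were called higher in 48 and lower in 16 of 264 tested, and processed pseudogenes higher in 11 and lower in 30 of 531. Reads of such genes can come from their parent genes.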
